A study of Mus musculus with 3 samples.

Results

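Small nucleolar RNA (snoRNA) host genes were examined in RIA-seq of mouse ES cells. They were chosen by gene symbol: of 7 symbols (Gas5, Snhg1, Snhg3, Snhg5, Snhg6, Snhg8 and Snhg12), 5 had rows among the 26887 genes of the tables, and Snhg6 and Snhg8 had no row under these names. RIA-seq recovers RNAs held together with a chosen target RNA: fixed and sonicated cells are hybridized with antisense oligonucleotides, the bound material is collected on streptavidin beads, and its RNA is sequenced. All 3 libraries came from undifferentiated E14 cells, an embryonic stem (ES) cell line of the 129/Ola strain grown without feeders, which were fixed with 1% glutaraldehyde. They differed in the oligonucleotides: against Actb, the β-actin mRNA (Actb RIA-seq, the control), against Malat1, a nuclear noncoding RNA (Malat1 RIA-seq), or against Tfrc, the transferrin receptor mRNA (Tfrc RIA-seq). Each condition had 1 library, so there was no replicate check, every comparison below is between the reads of 2 libraries, and every interval is a 95% interval for counting error only.

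SnoRNAs are short RNAs that guide chemical modification of ribosomal and spliceosomal RNAs. Box C/D snoRNAs direct methylation of riboses and box H/ACA snoRNAs direct conversion of uridine to pseudouridine, and in vertebrates most are cut out of the introns of longer host transcripts. In the Gas5 and Snhg genes the spliced host RNA does not encode a known conserved protein, is usually degraded in the cytoplasm by nonsense-mediated decay, and starts within a pyrimidine-rich motif known from ribosomal protein genes.

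The 5 host genes carry 25 annotated snoRNAs. In the Ensembl annotation of build NCBIM37, Gas5 (ENSMUSG00000053332, a lincRNA at chr1:162964553-162968670, plus strand) holds 9, all box C/D. Snhg1 (ENSMUSG00000090867, lincRNA, chr19:8797986-8800932, plus strand) holds 8 box C/D snoRNAs. Snhg5 (ENSMUSG00000032424, lincRNA, chr9:88415894-88417721, minus strand) holds 2 copies of SNORD50. Snhg3 (ENSMUSG00000085241, processed transcript, chr4:131903929-131909601, minus strand) holds the box H/ACA snoRNAs Snora73a and Snora73b. Snhg12 (ENSMUSG00000086290, lincRNA, chr4:131864593-131866939, plus strand) holds 3 box H/ACA snoRNAs and the box C/D snoRNA Snord99. Snhg3 and Snhg12 are neighbours on chromosome 4, on opposite strands.

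**Figure D1:**
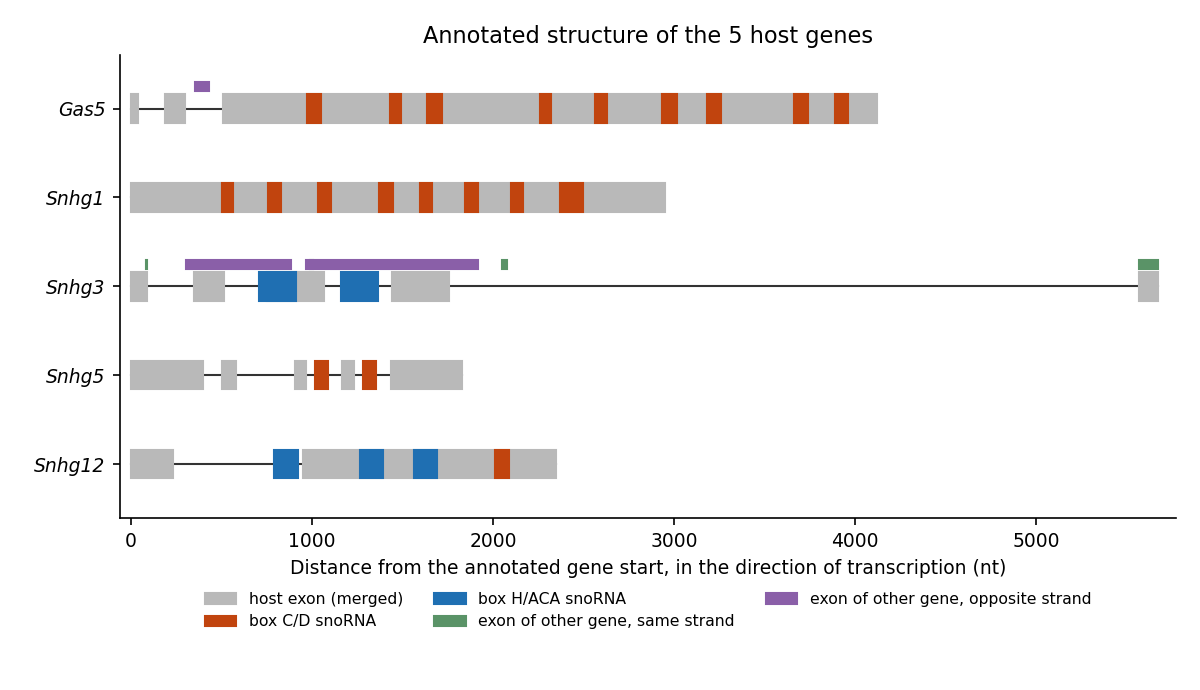
Annotated structure of the 5 host genes, drawn to scale from each gene's start in the direction of transcription (x axis, nt); grey boxes are exons merged over all transcripts, orange and blue boxes are box C/D and box H/ACA snoRNAs, and thin bars are exons of overlapping genes on the same (green) or opposite (purple) strand. In Gas5 and Snhg1 the merged exons cover the snoRNAs, while both SNORD50 copies in Snhg5 and Snora73b in Snhg3 lie in introns.

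SNORD44 and Snord47 of Gas5 are shown because they represent the box C/D class, whose letters TGATGA (box C) near the 5′ end and CTGA (box D) near the 3′ end are in capitals. SNORD44 lies at chr1:162966813-162966872 and Snord47 at chr1:162968213-162968289 (NCBIM37, plus strand). Searched on the snoRNA strand, TGATGA was found in the first 20 nt of 15 of the 20 hosted box C/D snoRNAs and CTGA in the last 20 nt of all 20, against 74.9% and 94.2% of the 346 annotated snoRNAs named SNORD.
SNORD44: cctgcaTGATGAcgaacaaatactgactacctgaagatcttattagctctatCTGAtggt
Snord47: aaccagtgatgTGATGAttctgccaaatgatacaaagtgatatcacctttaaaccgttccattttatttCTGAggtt

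The paired copies in Snhg3 and Snhg5 are shown because they are nearly the same sequence, which bears on how reads could be assigned to them. Capitals mark the bases at which the copies differ, read 5′ to 3′ on the minus strand. Snora73b (chr4:131908237-131908441) and Snora73a (chr4:131908690-131908894) differed at 7 of 205 bases (96.6% identical). The SNORD50 copies at chr9:88416367-88416438 (copy A here) and chr9:88416635-88416706 (copy B here) differed at 1 of 72 bases (98.6% identical).
Snora73b: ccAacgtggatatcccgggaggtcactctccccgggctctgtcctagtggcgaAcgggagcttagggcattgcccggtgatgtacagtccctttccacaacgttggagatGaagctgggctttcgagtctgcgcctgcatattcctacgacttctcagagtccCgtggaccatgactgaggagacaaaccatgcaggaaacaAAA
Snora73a: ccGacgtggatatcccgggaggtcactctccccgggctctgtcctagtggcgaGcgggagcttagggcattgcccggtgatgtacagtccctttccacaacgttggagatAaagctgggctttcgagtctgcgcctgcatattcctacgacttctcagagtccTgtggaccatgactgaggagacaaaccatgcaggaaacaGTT
SNORD50 copy A: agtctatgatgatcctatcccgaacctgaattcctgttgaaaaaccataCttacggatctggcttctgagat
SNORD50 copy B: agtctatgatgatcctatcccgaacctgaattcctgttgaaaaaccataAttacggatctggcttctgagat

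The members' start sites, where the host class is known for its pyrimidine motif, were read from RefSeq (GRCm38.p6), in which all 5 genes matched. Each line gives 65 bases on the gene's strand, from 45 bases before the start, with the longest run of C or T within 20 bases of the start and any TATA found 40 to 16 bases before it in capitals. Gas5 has 2 RefSeq starts, given in genome order as start A and start B. The windows are chr1:161034556-161034620 and chr1:161035121-161035185 (plus strand) for Gas5, chr19:8723442-8723506 (plus) for Snhg1, chr4:132353667-132353731 (minus) for Snhg3, chr9:88522878-88522942 (minus) for Snhg5 and chr4:132308633-132308697 (plus) for Snhg12.
Gas5 start A: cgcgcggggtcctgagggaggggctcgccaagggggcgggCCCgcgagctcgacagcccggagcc
Gas5 start B: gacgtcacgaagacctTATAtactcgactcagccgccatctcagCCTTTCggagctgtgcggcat
Snhg1: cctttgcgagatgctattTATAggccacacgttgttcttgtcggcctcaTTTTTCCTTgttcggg
Snhg3: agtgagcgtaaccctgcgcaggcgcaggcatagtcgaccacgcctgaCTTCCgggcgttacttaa
Snhg5: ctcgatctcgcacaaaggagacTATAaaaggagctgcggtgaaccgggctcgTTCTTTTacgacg
Snhg12: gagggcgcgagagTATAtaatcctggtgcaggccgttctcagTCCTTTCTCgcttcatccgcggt
The letters TATA, searched on the gene's strand, stood in that window before start B of Gas5 and the starts of Snhg1, Snhg5 and Snhg12, and in 5.91% of 32851 RefSeq promoters. They were not in the window of Snhg3 or of Gas5 start A. The C or T runs were 9 bases in Snhg1 and Snhg12, 7 in Snhg5, 6 at Gas5 start B, 5 in Snhg3 and 3 at Gas5 start A. Of all promoters, 10.7% held a run of at least 9, 24.3% of at least 7 and 37.5% of at least 6, with a median of 5. These matches describe letters and were not tested as sites.

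The tables hold raw read counts, which summed to between 10078439 and 14553941 a library. A gene could have an Ensembl-ID count and, listed separately under the reference name Genome, a Genome count. What separates the 2 kinds is not given in the sources used here. In Actb, Malat1 and Tfrc RIA-seq, 5.26%, 19.0% and 15.1% of the reads were of the Genome kind. The composition of the libraries also differed: the 10 genes with the most counts took 52.7%, 23.6% and 33.4% of them, with Lars2 alone at 32.0%, 17.0% and 22.2%. The labelled cell type was checked against its markers: all 8 ES cell markers had at least 10 counts in every library (summed, 3037, 3817 and 4248 counts per 1000000). Of 9 markers of other cells, 4 (Gata4, Gata6, Pax6 and Col1a1) also had at least 10 in every library. The neural marker Sox1 was at 0 in all 3. These 9 markers summed to 10.6, 22.5 and 19.0 per 1000000. Since the share of a gene moves with the rest of its library, folds are given below both over the library total and beside the median gene.

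Gas5, a host RNA named for its build-up in growth-arrested cells, held most of the host gene reads. Its counts (Ensembl-ID and Genome summed) in Actb, Malat1 and Tfrc RIA-seq were 2338, 4301 and 4839, or 225 (216 to 234), 427 (414 to 440) and 332.5 (323 to 342) per 1000000. The Malat1 library was highest and the Actb library lowest, and no intervals overlapped. Gas5 made up 59.8%, 57.2% and 51.6% of the summed host gene counts in the same order.

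Snhg5, the host of the SNORD50 pair, had 643, 1118 and 1702 counts in Actb, Malat1 and Tfrc RIA-seq, or 61.8 (57.2 to 66.8), 111 (105 to 118) and 117 (111 to 123) per 1000000. The Actb library was lowest and the other two overlapped. Snhg1, the host of SNORD25 to SNORD31 and Snord22, had 440, 1011 and 1298 counts, or 42.3 (38.5 to 46.4), 100.3 (94.3 to 107) and 89.2 (84.5 to 94.2) per 1000000. Malat1 RIA-seq was highest, by a narrow margin over Tfrc RIA-seq.

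Snhg3, the host of the Snora73 pair, had 325, 594 and 1000 counts, or 31.2 (28.0 to 34.8), 58.9 (54.4 to 63.9) and 68.7 (64.6 to 73.1) per 1000000. It was the member with the highest share in Tfrc RIA-seq and no overlap with Malat1 RIA-seq. Snhg12, the host of Snora16a, Snora44, Snora61 and Snord99, had the fewest counts: 166, 493 and 548, or 15.95 (13.7 to 18.6), 48.9 (44.8 to 53.4) and 37.65 (34.6 to 40.9) per 1000000. Its libraries stood in the order of Gas5 and did not overlap. Summed, the 5 genes had 3912, 7517 and 9387 counts, or 376 (364 to 388), 746 (729 to 763) and 645 (632 to 658) per 1000000.

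**Figure D2:**
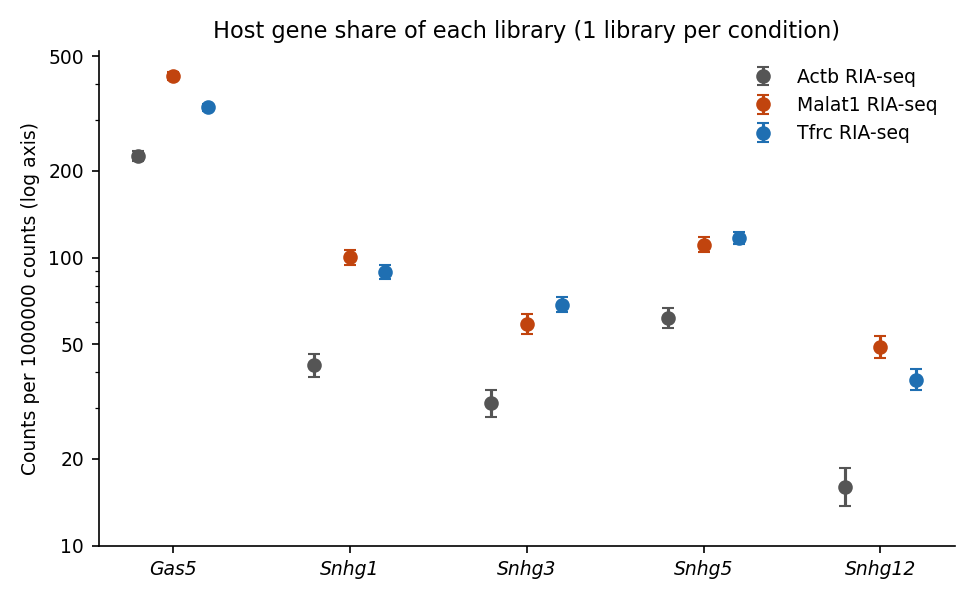
Share of each library taken by each host gene (y axis, counts per 1000000 counts, log axis) in Actb, Malat1 and Tfrc RIA-seq; points are single libraries and bars are 95% Wilson intervals for counting error. The Actb library is lowest for all 5 genes, Malat1 RIA-seq is highest for Gas5, Snhg1 and Snhg12, and Tfrc RIA-seq is highest for Snhg3, with the intervals of Snhg5 overlapping.

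Levels can be set beside each other only per length of exon. On the scale of Ensembl-ID counts per kb of merged exon per 1000000 counts, the level of Snhg5 was 63.4, 130.5 and 135.5 in Actb, Malat1 and Tfrc RIA-seq, and that of Gas5 was 63.0, 140 and 104. The 2 genes overlapped in Actb RIA-seq (58.6 to 68.6 and 60.5 to 65.6) and Malat1 RIA-seq, and Snhg5 was higher in Tfrc RIA-seq. Snhg3 followed with 31.4, 65.3 and 78.4, then Snhg1 with 14.9, 41.9 and 35.2 and Snhg12 with 10.1, 34.8 and 26.2, with no overlap between neighbours in this order in any library. All 15 of these levels were above the median gene (3.24, 4.69 and 3.84), from percentile 78.1 (Snhg12, Actb RIA-seq) to percentile 98.2 (Snhg5, Tfrc RIA-seq). The merged exons of Gas5 (3760 nt of 4118 nt) and Snhg1 (all 2947 nt) include snoRNA-bearing sequence. Those of Snhg12 (1626 nt of 2347 nt) include 3 of its 4 snoRNAs. The levels per kb of Gas5, Snhg1 and Snhg12 therefore depend on that annotation more than those of Snhg3 (986 nt of 5673 nt) or Snhg5 (993 nt of 1828 nt).

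All 5 host genes had a larger share of Malat1 RIA-seq than of Actb RIA-seq. A fold is the ratio of the 2 shares, computed where both libraries had at least 10 counts. Snhg12 had the largest, 3.07 (2.57 to 3.66), followed by Snhg1 with 2.37 (2.12 to 2.65). Gas5 (1.90, 1.81 to 2.00), Snhg3 (1.89, 1.65 to 2.16) and Snhg5 (1.80, 1.63 to 1.98) lay close together. Thus 2 of 5 reached a fold of 2, where 42.1% of the 14572 genes tested did, and none of the 5 was at or below 0.5, where 0.954% of genes were. The median fold of these genes was 1.82 and 88.7% of genes were above 1, so a share higher than in Actb RIA-seq was the usual state of a gene. The intervals of Snhg12 and Snhg1 lay above the median gene (percentiles 86.5 and 71.2), and those of Gas5, Snhg3 and Snhg5 held it. Summed, the host genes had a fold of 1.98 (1.91 to 2.06), at percentile 57.2 of single genes.

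When Tfrc RIA-seq was set over Actb RIA-seq, the folds were again above 1 for all 5, in another order. Snhg12 had 2.36 (1.98 to 2.81), Snhg3 2.20 (1.94 to 2.49), Snhg1 2.11 (1.89 to 2.35), Snhg5 1.89 (1.73 to 2.07) and Gas5 1.48 (1.41 to 1.56). The 3 that reached 2, of 5, compare with 28.6% of the 14691 genes tested, and none was at or below 0.5, where 0.388% of genes were. The median fold was 1.56. The intervals of the 4 Snhg genes lay above it, between percentiles 67.4 and 82.0, and the interval of Gas5 just below it (percentile 45.4). The sum over 5 genes, 1.72 (1.65 to 1.78), was held down by Gas5: without it the other 4 gave 2.07 (1.95 to 2.19). Both comparisons share the Actb library, so they are not independent of each other.

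Malat1 RIA-seq set against Tfrc RIA-seq leaves the control library out. In this comparison the targets themselves had folds of 1.51 (1.50 to 1.53) for Malat1 and 0.864 (0.800 to 0.934) for Tfrc. Neither target was thus 2-fold apart between the 2 libraries. Here the members divided. Snhg12 (1.30, 1.15 to 1.47), Gas5 (1.28, 1.23 to 1.34) and Snhg1 (1.13, 1.04 to 1.22) had the larger share in Malat1 RIA-seq, and Snhg3 (0.858, 0.775 to 0.949) had the larger share in Tfrc RIA-seq. The interval of Snhg5 (0.949, 0.880 to 1.02) held 1. None of 5 reached a fold of 2 or 0.5, where 4.35% and 1.92% of the 16430 genes tested did. Against the median gene (1.15) Gas5 was above, Snhg3 and Snhg5 below (percentiles 18.5 and 26.8), and Snhg1 and Snhg12 not apart from it. Scaled to the median gene, Snhg1 turned to 0.975, while Gas5 and Snhg12 stayed above 1 and Snhg3 and Snhg5 below it. The sum was 1.16 (1.12 to 1.19) with Gas5 and 1.02 (0.976 to 1.07) without it.

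**Figure D3:**
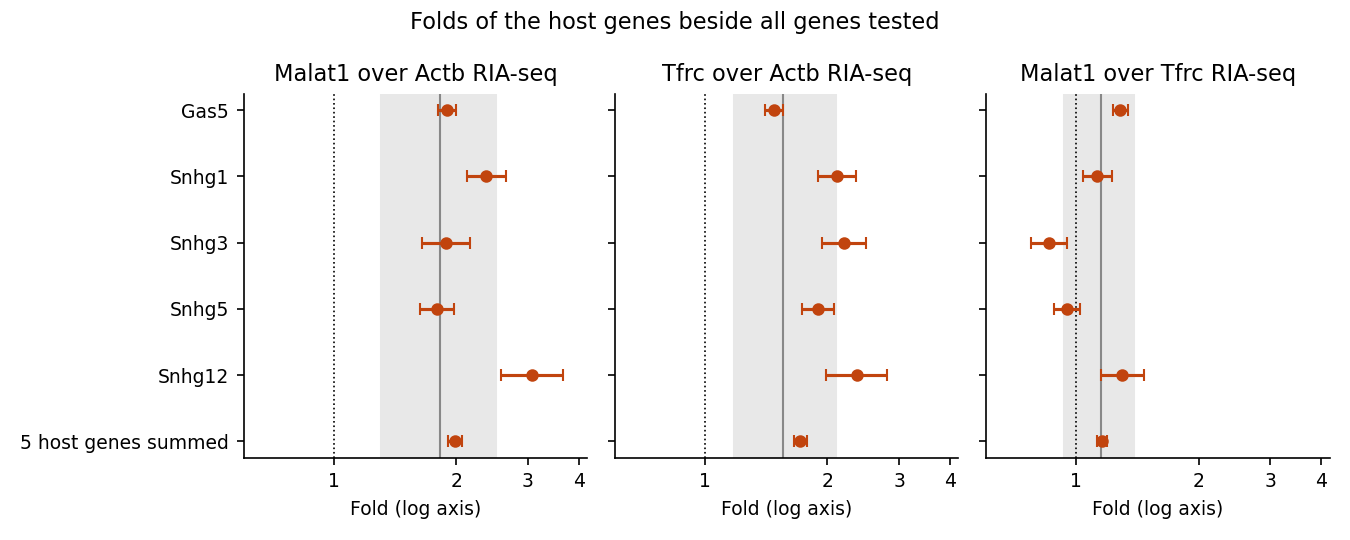
Fold of each host gene and of their sum (x axis, ratio of library shares, log axis) in the 3 comparisons, with 95% counting intervals; the grey line and band are the median and quartiles of all genes tested and the dotted line is a fold of 1. Snhg12 lies above the band in Malat1 over Actb (3.07), Snhg1, Snhg3 and Snhg12 lie at or above its edge in Tfrc over Actb, and Snhg3 lies below it in Malat1 over Tfrc (0.858).

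Dividing the fold of one member by that of another removes the library total from the comparison. Each comparison had 10 pairs, 30 in all, with no adjustment for their number. The interval of this ratio excluded 1 in 7 pairs for Malat1 over Actb, in 5 for Tfrc over Actb and in 7 for Malat1 over Tfrc. The same share over pairs of other genes of like depth was not computed, so these counts cannot be read as particular to the host genes. In Malat1 over Actb, 4 of the 7 were Snhg12 against each other member, from 0.586 (Snhg5 over Snhg12, 0.479 to 0.716) to 0.774 (Snhg1 over Snhg12, 0.628 to 0.953). In Tfrc over Actb, 4 of the 5 were Gas5 against each other member, from 0.627 (Gas5 over Snhg12, 0.523 to 0.751) to 0.782 (Gas5 over Snhg5, 0.705 to 0.867). In Malat1 over Tfrc the widest ratios were Gas5 over Snhg3 (1.50, 1.34 to 1.67) and Snhg3 over Snhg12 (0.660, 0.564 to 0.774). Gas5 and Snhg12 (0.988, 0.869 to 1.12) and Snhg3 and Snhg5 (0.904, 0.797 to 1.03) were not told apart there. The neighbours Snhg3 and Snhg12 thus differed in both comparisons that involve Malat1 RIA-seq and not detectably in Tfrc over Actb (0.932, 0.753 to 1.16).

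Keeping Ensembl-ID and Genome counts apart showed a second difference, which was upward in Snhg3 and Snhg5 and downward in Snhg1 for Malat1 over Tfrc. Snhg3 had 20 Genome counts beside 305 Ensembl-ID counts with the Actb oligonucleotides, 69 beside 525 with those against Malat1 and 45 beside 955 with those against Tfrc. Genome counts were therefore 6.15% (4.02 to 9.31), 11.6% (9.28 to 14.4) and 4.50% (3.38 to 5.97) of its reads. Snhg5 had 22, 61 and 39 Genome counts, or 3.42% (2.27 to 5.13), 5.46% (4.27 to 6.95) and 2.29% (1.68 to 3.12). In both genes the Malat1 library was highest and did not overlap with the Tfrc library.

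As shares of the whole library, the 2 kinds of count of these genes moved in opposite directions between Malat1 and Tfrc RIA-seq. For Snhg3 the fold was 2.21 (1.52 to 3.22) for Genome counts and 0.794 (0.714 to 0.883) for Ensembl-ID counts. For Snhg5 it was 2.26 (1.51 to 3.38) and 0.918 (0.850 to 0.991). The ratio of Genome to Ensembl-ID counts was thus 2.79-fold (1.89 to 4.12) higher in Malat1 RIA-seq for Snhg3 and 2.46-fold (1.63 to 3.71) for Snhg5. These ratios lay at percentiles 96.5 and 94.1 of 10137 genes, whose median was 1.15. Over the Ensembl-ID total of each library, the Ensembl-ID fold was 0.8325 (0.748 to 0.926) for Snhg3. For Snhg5 it was then 0.9625 (0.891 to 1.04), which held 1. Snhg12, with 4, 31 and 21 Genome counts, had a ratio of 1.68 (0.954 to 2.97), which was not distinguishable from 1 at this depth. Snhg1 went the other way on few Genome counts (3 against 15), with a ratio of 0.255 (0.0735 to 0.882). Gas5, with 1 and 8 Genome counts, had 0.140 (0.0176 to 1.12), and its interval held 1. Genes were ranked here and below only with at least 10 counts of each kind in both libraries. Snhg1 and Gas5 did not reach that minimum, so no percentile is given for them.

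Over Actb RIA-seq, the same ratio for Tfrc RIA-seq was 0.719 (0.418 to 1.24) in Snhg3 and 0.662 (0.389 to 1.13) in Snhg5, at percentiles 3.06 and 2.41 of 7549 genes with a median of 2.19. Both intervals held 1 and lay below that median, so the higher Genome share of the Tfrc library was not seen in these genes. For Malat1 RIA-seq the ratio over Actb RIA-seq was 2.00 (1.20 to 3.36) in Snhg3, 1.63 (0.991 to 2.68) in Snhg5 and 2.72 (0.945 to 7.82) in Snhg12, where the median of 7496 genes was 2.51.

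**Figure D4:**
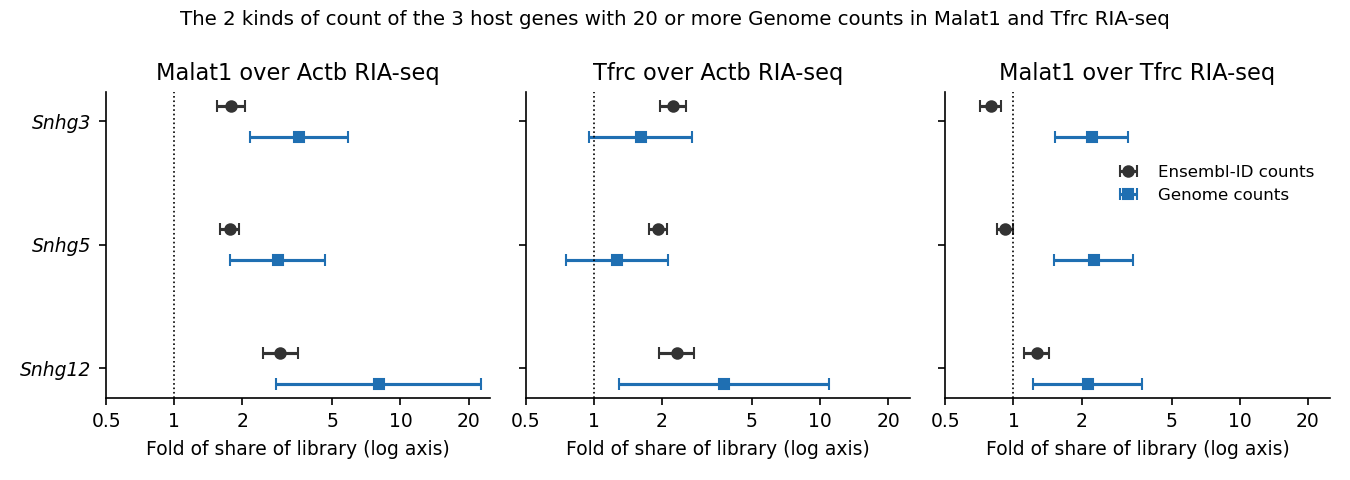
Folds of Ensembl-ID counts (black circles) and Genome counts (blue squares), each as a share of all counts of the library (x axis, log axis), for Snhg3, Snhg5 and Snhg12, with 95% counting intervals and a dotted line at 1; Gas5 and Snhg1, with 15 or fewer Genome counts a library, are not drawn. In Malat1 over Tfrc, Snhg3 and Snhg5 stand below 1 for Ensembl-ID counts (0.794 and 0.918) and above 2 for Genome counts (2.21 and 2.26).

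Genome counts were a small part of all 5 host genes. In Gas5 they numbered 2, 1 and 8 (at most 0.165% of its reads) and in Snhg1 7, 3 and 15 (at most 1.59%). Genes with annotated introns and at least 300 counts over the 3 libraries (9065 genes) had a median Genome share of 11.7%, 26.1% and 23.1%, and 577 genes without introns had a median of 0%. Introns were counted here with exons merged over all transcripts, which left Gas5 358 nt of intron and Snhg1 none. Spliced transcripts of Snhg1 are not excluded by this. Whether the 2 kinds of count separate spliced from unspliced RNA was not tested. The Genome counts of the 5 genes were also summed and scaled to the Genome total of each library. The summed fold was then 0.855 (0.630 to 1.16) in Malat1 over Actb and 0.579 (0.422 to 0.794) in Tfrc over Actb. That total was 5.26%, 19.0% and 15.1% of the Actb, Malat1 and Tfrc libraries. These folds are therefore not on the scale used for all counts. Over the library total, the Genome fold for Malat1 over Actb was 3.56 (2.165 to 5.86) in Snhg3 and 2.86 (1.76 to 4.66) in Snhg5. It was also above 1 in Snhg12 and below 1 in Gas5 and Snhg1, whose intervals held 1. For Tfrc over Actb it was above 1 in all 5, with only the interval of Snhg12 excluding 1.

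The snoRNAs themselves had few counts, as did annotated snoRNAs in general. Of the 25 hosted snoRNAs, 8 had a count in any library, where 26.5% of all 1552 annotated snoRNAs did. The other 17 were at 0, which allows up to 0.288, 0.298 and 0.206 counts per 1000000 (3 counts) in Actb, Malat1 and Tfrc RIA-seq. All 9 snoRNAs of Gas5, SNORD44 and Snord47 included, were at 0, while their host had between 2338 and 4839 counts a library. The 20 snoRNAs fully inside annotated exons held 19 of the 368 hosted snoRNA counts, and 327 belonged to the Snora73 pair in Snhg3. Reads within an exonic snoRNA may have been listed under the host, which the sources do not state.

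Snora73b, also called U17, which takes part in the cleavage of ribosomal RNA precursors rather than in their modification, had 37, 72 and 166 counts in Actb, Malat1 and Tfrc RIA-seq. The Tfrc library was highest also after the library totals were taken into account. Its folds were 2.01 (1.35 to 2.99) for Malat1 over Actb, 3.21 (2.25 to 4.58) for Tfrc over Actb and 0.626 (0.475 to 0.826) for Malat1 over Tfrc. Divided by the fold of Snhg3 they were 1.07 (0.700 to 1.62), 1.46 (0.9995 to 2.13) and 0.730 (0.544 to 0.980), so the interval excluded 1 only for Malat1 over Tfrc, and narrowly. Snora73a had 7, 28 and 17 counts. Its share was also lowest in Actb RIA-seq but was higher in Malat1 than in Tfrc RIA-seq, with a fold of 2.38 (1.30 to 4.35). The pair differs at the 7 bases printed above, and reads could be assigned to either copy or to further SNORA73 loci that match Snhg3 exon sequence at 82.8% identity or more, of which the one on chromosome 9 had 20, 42 and 73 counts. The difference between Snora73a and Snora73b is therefore uncertain.

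The remaining hosted snoRNAs had 6 counts or fewer in each library. Snora16a of Snhg12 had 2, 6 and 6, Snora44 3, 2 and 3 and Snora61 1, 4 and 1. Snord22 of Snhg1 had 1, 2 and 2, and the SNORD50 copies of Snhg5 had 0, 2 and 1 (copy A) and 2, 3 and 0 (copy B). No difference between libraries could be shown at these counts.

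Reads of Snhg3 may belong to other genes. The lincRNA Gm17300 lies on the opposite strand and covers 705 nt (71.5%) of the merged exons of Snhg3, as well as all of Snora73b. It had 420, 968 and 1181 counts, with folds of 2.38 (2.12 to 2.67), 2.01 (1.80 to 2.25) and 1.18 (1.09 to 1.29) for Malat1 over Actb, Tfrc over Actb and Malat1 over Tfrc. Rcc1, which encodes the guanine nucleotide exchange factor of Ran, shares 135 nt (13.7%) of Snhg3 exon on the same strand and had 1091, 2532 and 1944 counts, with folds of 2.40, 1.27 and 1.88. Its order of libraries was the reverse of that of Snhg3 between Malat1 and Tfrc RIA-seq. The counting is not stated to use strand, so reads of Snhg3 and Gm17300 cannot be told apart over the shared bases. Zbtb37 overlaps Gas5 on the opposite strand with 0 shared exon nt and had 57, 168 and 176 counts, a small number beside Gas5.

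Shared sequence elsewhere in the genome differed between members. At 80% identity or more over at least 100 nt, the exons of Gas5 matched no other gene, those of Snhg5 matched 2, of Snhg3 3, of Snhg12 4 and of Snhg1 20. All 20 matches of Snhg1 had counts, with up to 864, 1325 and 1960 a gene in Actb, Malat1 and Tfrc RIA-seq. Both matches of Snhg5 are lincRNAs on chromosome 9: 9330159M07Rik, 83.9% identical over 386 nt, had 14, 76 and 91 counts, and 9430037G07Rik, 82.2% identical over 348 nt, had 16, 80 and 54. How reads with several matches were treated is not given in the sources used here, and the part of shared sequence in the folds was not tested.

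Other noncoding snoRNA hosts had a median fold of 3.97 for Malat1 over Actb, where the 5 members had 1.90, and of 2.14 for Tfrc over Actb, where the members had 2.11. This list joined other Snhg genes with noncoding genes that contain an annotated snoRNA, 23 in all, of which 11 had enough counts. Snhg11 was kept in it although this annotation lists it as protein-coding. For Malat1 over Actb 9 of 11 reached 2, where 42.1% of all genes did, and for Tfrc over Actb 6 of 11, where 28.6% did. The medians over all genes were 1.82 and 1.56. In Malat1 over Tfrc 3 of 11 reached 2, where 4.35% of all genes did, with a median of 1.53 beside 1.15. Rian, an imprinted noncoding RNA with 12 annotated snoRNAs, had 732, 2532 and 2540 counts and a fold of 3.57 (3.29 to 3.88) for Malat1 over Actb. The intervals of Snhg11 (222, 1071 and 1137 counts, 4.98, 4.31 to 5.76) and Snhg4 (316, 1376 and 1155 counts, 4.50, 3.98 to 5.08) lay above those of all 5 members in that comparison. The lowest and highest were Gm11974 (1.70, 1.36 to 2.12) and 9330159M07Rik, the relative of Snhg5 (5.61, 3.17 to 9.91). For Tfrc over Actb the lowest was Gm11659 (1.32, 0.753 to 2.30). Genome counts were 64.9%, 55.6% and 68.8% of Snhg4, 26.6%, 34.3% and 34.8% of Rian and under 1% of Snhg11. They were 100%, 100% and 94.3% of Gm11659, 17.5%, 37.7% and 19.2% of Gm11974 and 0%, 2.63% and 0% of 9330159M07Rik.

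Protein-coding genes whose bounds hold an annotated snoRNA on the same strand lay close to the median gene. The annotation was taken as given: of its 1031 snoRNAs named SNORA, 64.4% had ACA in the last 10 nt. Whether each listed gene produces a snoRNA was not tested. For Malat1 over Actb 79 of 198 (39.9%) reached 2, near the 42.1% of all genes, with a median fold of 1.71. For Tfrc over Actb 55 of 200 (27.5%) did, near the 28.6% of all genes, with a median of 1.52. In Malat1 over Tfrc 2 of 207 (0.966%) reached 2 and 4 were at or below 0.5, where 4.35% and 1.92% of all genes were, and the median was 1.15. Ncl, which encodes nucleolin, the main protein of the nucleolus, had 32683, 44169 and 36204 counts and folds of 1.40 (1.38 to 1.42) and 0.792 (0.780 to 0.804) over Actb RIA-seq. Of the ribosomal protein genes named by rule, Rpl4 (15096, 14450 and 18734 counts) had 0.988 and 0.887, Rpl37 had 1.00 and 0.684, the lowest of the list in Tfrc over Actb, and Rps2 had 0.467 and 0.743, the lowest of the list in Malat1 over Actb. They do not stand for the ribosomal protein hosts as a class: Rps3a, named after its values were seen, had 1.96 and 0.748. Tpt1 (11803, 14528 and 16427 counts), which encodes a translationally controlled protein, had 1.27 and 0.995. The highest were the receptor kinase gene Mertk, with 25, 181 and 150 counts and 7.48 (4.92 to 11.4) for Malat1 over Actb, and the ubiquitin ligase gene March1, with 15, 53 and 128 counts and 6.10 (3.57 to 10.4) for Tfrc over Actb. In Actb, Malat1 and Tfrc RIA-seq, Genome counts were 40%, 49.2% and 44.7% of Mertk and 73.3%, 75.5% and 71.9% of March1.

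Genes for the proteins that bind snoRNAs had medians below those of the 5 hosts and of all genes over Actb RIA-seq. Of the 4 core box C/D proteins only Nop58 reached 2 in Malat1 over Actb (1813, 4491 and 4780 counts, 2.56, 2.42 to 2.70), where 42.1% of all genes did. None reached 2 in Tfrc over Actb, where 28.6% of all genes did. The list's medians were 1.49 and 1.21 over Actb RIA-seq. Nop56, the partner of Nop58, had 1.61 and 1.43, the methyltransferase gene Fbl 1.28 and 0.989 and Nhp2l1 1.37 and 0.907. Of the 4 box H/ACA proteins none reached 2 in either comparison, beside the same shares of all genes, with medians of 1.35 and 1.17. Lists of 4 genes are too short to read a difference from those shares. Dkc1, the pseudouridine synthase gene, had 1.64 and 1.28, Gar1 1.59 and 1.44, Nhp2 1.11 and 1.06 and Nop10 0.820 and 0.728. Both Nop58 and Nop56 themselves contain 4 annotated snoRNAs.

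Assembly factors of snoRNPs reached 2 in 3 of 10 genes for Malat1 over Actb and in 1 of 10 for Tfrc over Actb, with a median of 1.42 in each, beside the 42.1% and 28.6% of all genes that did. Shq1, a chaperone of dyskerin, was highest in both (163, 546 and 600 counts, 3.46 and 2.63). The ATPase genes Ruvbl2 (0.898 and 1.09) and Ruvbl1 (1.21 and 0.870) and the phosphoprotein gene Nolc1 (1.32 and 1.10) had the most counts. Nonsense-mediated decay factors, which act on spliced host RNAs, reached 2 in 4 of 8 and 2 of 8, shares close to those of all genes, with medians of 2.08 and 1.76. Upf3b was highest (140, 602 and 636 counts, 4.44 and 3.25) and its paralog Upf3a lowest (215, 224 and 323 counts, 1.08 and 1.07). The kinase gene Smg1 had 1.84 and 1.76 and the endonuclease gene Smg6 2.98 and 2.48. In Malat1 over Tfrc none of the genes in these 4 lists reached 2, where only 4.35% of the 16430 genes tested did.

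**Figure D5:**
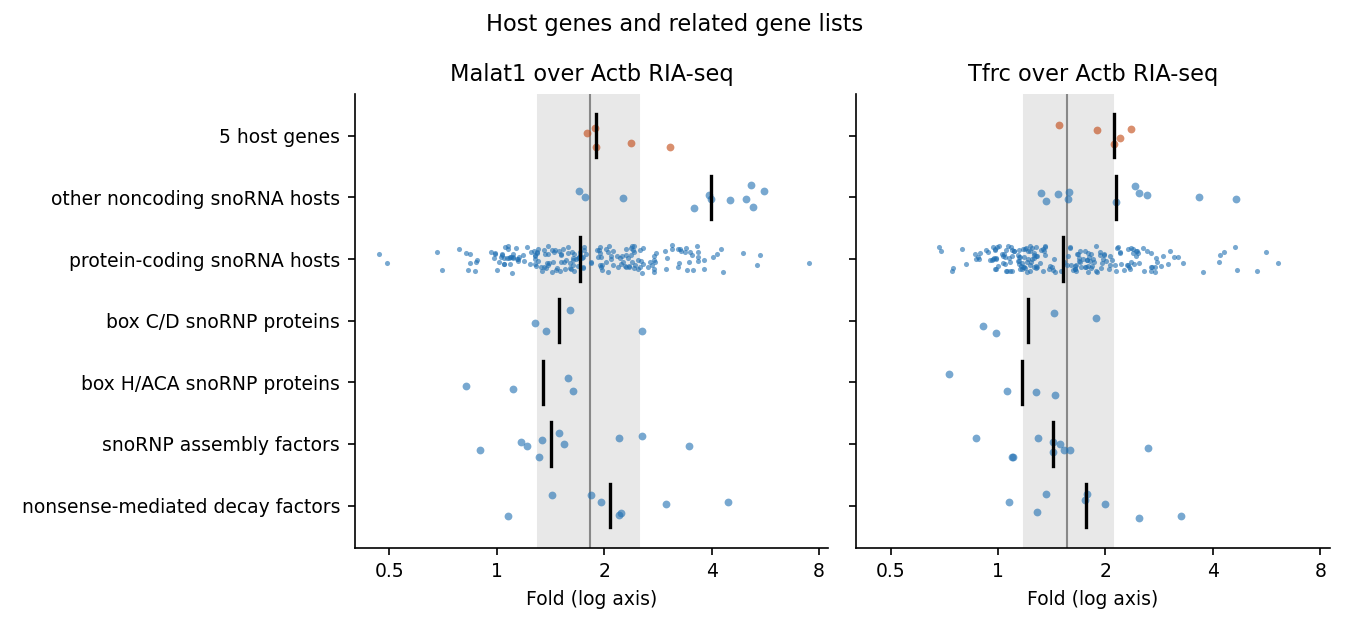
Folds over Actb RIA-seq (x axis, log axis) of the 5 host genes (orange) and of 6 related gene lists (blue), 1 point for each gene whose counts were at least 10 in each library; black bars are list medians and the grey line and band are the median and quartiles of all genes tested. In Malat1 over Actb the other noncoding hosts have a median of 3.97, and the protein-coding hosts (1.71) lie near the median gene (1.82).

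The genes whose pair of folds over Actb RIA-seq came nearest to that of the summed host genes were Ece1, Dsg2, Rnf145, Luc7l and Nudt5. Likeness was the distance between the 2 log2 folds over the 3 libraries, among 3620 genes with at least 300 counts in each, and was 0.0042 for Ece1 and 0.011 for Nudt5. Ece1 had 417, 799 and 1000 counts with folds of 1.98 and 1.71. Of the 3620 genes, 95 (2.62%) lay within 0.1. Nudt5 is 1 of the 20 genes that share sequence with Snhg1.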

How the data were processed

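The 3 RIA-seq libraries of E14 ES cells, 1 per condition, were grouped by the antisense oligonucleotides that the labels name. The authors deposited raw read counts per gene, not normalized. The submitters' processing notes name Bowtie 0.12.7 and the builds mm9 and NCBIM37. The counting rule, strand and treatment of reads with several matches are not given in the sources used here.

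Counts of each symbol and chromosome were summed and divided by the library total (10405209, 10078439 and 14553941 in Actb, Malat1 and Tfrc RIA-seq), with a pseudocount of 0. Intervals of folds are at the 95% level on the log scale and those of shares are Wilson intervals. The two-sided chi-square test, run on each member's counts against the rest of both libraries, fell on the same side of 0.05 as the interval in 15 of 15 folds. With 1 library per condition these compare libraries only, and no p-value is given. The smallest share considered was 3 counts.

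Gene models came from GENCODE at NCBIM37 (Ensembl), in which 98.6% of 24080 identifiers were found, and start sites from RefSeq. Shared exon sequence was found with BLAST+ 2.17.0. Folds were tested on simulated counts. Computation used scipy 1.17.1, numpy 2.4.6 and pandas 2.3.3 under Python 3.11.15, with matplotlib 3.10.9 for plots. The members and gene lists were chosen with earlier results of these data known. Of 11 further Snhg symbols listed, 7 were not found in the annotation. The genes named were all members, up to 2 snoRNAs a member with the most counts, for each list the 3 genes with the most counts and the highest and lowest fold over Actb RIA-seq, and the 5 genes most like the summed hosts. One gene that this rule names is not reported here. Overlapping and sequence-sharing genes, Snhg11's and Snhg4's place above the members and the remaining snoRNAs with a count were named after their values were seen.

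Alternatives were other library scalings (median gene, 75th percentile, totals without the 10 largest or the 3 target genes), a pseudocount of 1, minimums above 0 and of 50, either kind of count alone, Fisher's exact test, and the sum without Gas5.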

Additional observations from a re-analysis of the deposited data

How the results depend on the processing

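Of 120 alternatives to the folds of single host genes, 89 kept their direction and their side of 1, 9 no longer excluded 1, 3 newly excluded it and 19 changed direction. Of 27 alternatives to the summed folds, 21 kept both, 4 no longer excluded 1 and 2 changed direction. Both totals include Fisher's exact test, which leaves the fold and its interval as they were. They also include a pseudocount of 1, which hardly moves counts of this size. Snhg12, the member with the fewest counts, was then 3.054 for Malat1 over Actb, beside 3.066. All alternatives of these kinds kept both, so the numbers that kept both overstate how far the folds were tested. No paired analysis was possible because each condition has 1 library. Depth limits the Genome counts: Gas5, Snhg1 and Snhg12 had 31 or fewer in each library.

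With Genome counts only, over the Genome total, the summed fold was 0.855 for Malat1 over Actb and 0.579 for Tfrc over Actb. This setting changes the denominator as well as the counts, so its change of direction cannot be read as one of the counts alone. For Malat1 over Actb, Gas5 was then 0.143, Snhg1 0.122, Snhg3 0.983 and Snhg5 0.790. For Tfrc over Actb, Gas5 was 0.995, Snhg1 0.533, Snhg3 0.560 and Snhg5 0.441. For Malat1 over Tfrc, Gas5 was 0.143, Snhg1 0.229, Snhg3 1.76 and Snhg5 1.79. With the median gene set to 1 and with the 75th percentile, Snhg5 was 0.986 and 0.988 for Malat1 over Actb, Gas5 0.949 and 0.921 for Tfrc over Actb, and Snhg1 0.975 and 0.995 for Malat1 over Tfrc, where it was 0.981 without the 10 largest genes. The summed fold for Malat1 over Tfrc no longer excluded 1: 1.003 with the median gene, 1.02 with the 75th percentile, 1.01 without the 10 largest genes and 1.02 without Gas5.

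The number of host genes at 2-fold or more, 2 for Malat1 over Actb and 3 for Tfrc over Actb, was 0 in both with the median gene, the 75th percentile or totals without the 10 largest genes. Each of these scalings changes the folds of all genes by the same factor. The share of all genes at 2-fold or more was not computed under them, so the drop cannot be read as particular to the host genes. The number of host genes was 5 for Malat1 over Actb with Ensembl-ID counts only, and 1 and 0 with Genome counts only. These settings divide by the total of that kind of count, and the share of all genes was not computed under them. Over the library total, the Ensembl-ID folds for Malat1 over Actb were 2.94 in Snhg12 and 2.40 in Snhg1. Those of Gas5 (1.9), Snhg3 (1.78) and Snhg5 (1.76) were below 2. With the median gene set to 1, the counts of list genes at 2-fold or more for Malat1 over Actb and Tfrc over Actb were 14 and 12 of the protein-coding hosts, 0 and 0 of the assembly factors, 0 and 0 of the box C/D proteins, and 1 and 1 of the decay factors. Of the other noncoding hosts, 7 of 11 were then at 2-fold or more for Malat1 over Actb, against 9 of 11 in the report. For Tfrc over Actb 2 were, against 6 of 11. The share of all genes was not computed for these settings either. With a minimum above 0 the count of other noncoding hosts for Tfrc over Actb was 10 of 17, since more genes were tested. Apart from the effect of fewer genes or of each scaling's own factor, the cause of these changes was not tested.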
